A study of Mus musculus with 36 samples.

Results

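The genes described here encode the machinery of DNA replication and of entry into S phase. They were taken as the probe sets whose platform symbol was 1 of 44 listed genes, from 6 groups by role: origin licensing, the replicative helicase, polymerases and primase, the clamp with its loader and strand joining, nucleotide supply, and chromatin assembly with S phase entry. 43 of the 44 genes had at least 1 probe set, 77 probe sets in all, out of 12393 genes in the series. Chaf1a had none. Each gene was read on its brightest probe set, and 37 of the 43 passed the filter on low values and were tested. The other 6 (Orc1, Cdc6, Pole2, Rfc4, Tyms and Ccne2) had a mean over all arrays in the lowest 40% of genes.

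RNA of mouse embryonic fibroblasts was measured on 36 Affymetrix arrays, from wild type cells and from PKBa-/- cells, which lack Akt1, the gene of protein kinase B alpha. The labels number the times 0, 2, 6, 24 and 48 and name no unit. There were 4 arrays per genotype and time, except at time 2, which had replicates 1 and 2 alone. Per the labels, cells of both genotypes came from 13.5-day embryos of crosses between heterozygous PKBa mice, were grown in DMEM (a standard culture medium) with foetal calf serum, and were used at passages 15 to 20. The number of embryos or cell lines behind each genotype is not given in the labels, so a difference between genotypes cannot be told apart from a difference between the cell isolates. The series title names DMEM treatment. The protocol text also describes an adipocyte induction mixture with 3-isobutyl-1-methylxanthine, dexamethasone and insulin, applied to confluent cells, and which medium each array received is not labelled.

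Replication origins are licensed in G1, when the origin recognition complex, CDC6 and CDT1 load rings of MCM2 to MCM7 onto DNA. In S phase CDC45 and other factors turn these rings into moving helicases, primase and the DNA polymerases copy the strands, and the PCNA clamp holds the polymerases in place. Many of these genes are transcribed in waves under E2F transcription factors, which are released when cyclin-dependent kinases inactivate the RB protein. In whole-culture RNA, fewer cells in S phase and less RNA per cell cannot be told apart.

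Because E2F factors are textbook regulators of this set, the promoters of the members were searched for their motif. RefSeq start sites on GRCm38.p6 gave promoter windows of 300 bases, from 250 before to 50 after the start, for 39 of the 44 genes. Gmnn, Mcm4, Pole, Rfc2 and Ccne2 had no entry. The letters TTTCCCGC, TTTCGCGC, TTTGCCGC and TTTGGCGC were sought on both strands, and overlapping matches were each counted. At least 1 match was found for 13 of the 39 members (33.33%), against 704 of 27025 genes in the table (2.605%). These 13 were Orc1, Cdc6, Cdt1, Mcm3, Mcm5, Mcm6, Mcm7, Pola1, Pold1, Pole2, Rfc3, Lig1 and Uhrf1. The CCAAT letters, sought in the same way, were found for 24 of the 39 members (61.54%) and for 41.06% of genes. The letters TTTGAA of the CHR element, known from promoters of mitosis genes, were found for 4 of the 39 members (10.26%) and for 20.23% of genes. A match describes the letters and is not a measured binding site. The windows below belong to members that passed in at least 1 comparison, written 5′ to 3′ on the strand of the gene, with E2F matches in capitals. Mcm5 and Mcm7 hold 2 matches each, which overlap in Mcm5, and Pola1, Pold1 and Uhrf1 hold 1 each. Rrm2 is shown as a member with none of these letters in its window.
Mcm5, chr8:75109259-75109558, plus strand: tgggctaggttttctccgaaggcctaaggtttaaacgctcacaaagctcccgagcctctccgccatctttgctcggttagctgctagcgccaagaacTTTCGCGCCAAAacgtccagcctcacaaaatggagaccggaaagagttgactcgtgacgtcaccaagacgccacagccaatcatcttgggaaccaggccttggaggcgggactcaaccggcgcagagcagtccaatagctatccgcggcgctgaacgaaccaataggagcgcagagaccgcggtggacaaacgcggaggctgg
Mcm7, chr5:138171834-138172133, minus strand: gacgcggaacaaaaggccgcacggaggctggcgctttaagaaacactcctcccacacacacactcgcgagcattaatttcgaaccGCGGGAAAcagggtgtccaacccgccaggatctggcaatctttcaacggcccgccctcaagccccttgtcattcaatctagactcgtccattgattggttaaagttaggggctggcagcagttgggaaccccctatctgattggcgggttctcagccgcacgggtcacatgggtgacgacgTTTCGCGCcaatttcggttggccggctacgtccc
Pola1, chrX:93632106-93632405, minus strand: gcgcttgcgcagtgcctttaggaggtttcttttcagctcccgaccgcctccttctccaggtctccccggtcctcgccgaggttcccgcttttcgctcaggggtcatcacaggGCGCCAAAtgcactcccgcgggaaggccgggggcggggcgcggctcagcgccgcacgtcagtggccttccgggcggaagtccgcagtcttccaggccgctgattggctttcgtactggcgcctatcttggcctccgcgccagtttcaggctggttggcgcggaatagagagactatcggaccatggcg
Pold1, chr7:44548766-44549065, minus strand: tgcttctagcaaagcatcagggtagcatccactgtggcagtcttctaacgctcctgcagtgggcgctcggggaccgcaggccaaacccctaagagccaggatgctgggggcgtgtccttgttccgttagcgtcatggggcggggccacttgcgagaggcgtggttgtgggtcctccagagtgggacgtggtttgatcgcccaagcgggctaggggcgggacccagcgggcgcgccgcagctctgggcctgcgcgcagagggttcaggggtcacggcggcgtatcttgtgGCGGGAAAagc
Uhrf1, chr17:56304063-56304362, plus strand: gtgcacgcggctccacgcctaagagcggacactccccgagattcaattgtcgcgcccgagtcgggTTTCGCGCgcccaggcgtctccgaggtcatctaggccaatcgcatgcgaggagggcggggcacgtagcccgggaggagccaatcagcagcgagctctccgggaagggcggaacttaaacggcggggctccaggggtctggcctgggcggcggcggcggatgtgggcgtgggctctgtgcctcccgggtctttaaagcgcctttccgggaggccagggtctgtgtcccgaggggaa
Rrm2, chr12:24708004-24708303, plus strand: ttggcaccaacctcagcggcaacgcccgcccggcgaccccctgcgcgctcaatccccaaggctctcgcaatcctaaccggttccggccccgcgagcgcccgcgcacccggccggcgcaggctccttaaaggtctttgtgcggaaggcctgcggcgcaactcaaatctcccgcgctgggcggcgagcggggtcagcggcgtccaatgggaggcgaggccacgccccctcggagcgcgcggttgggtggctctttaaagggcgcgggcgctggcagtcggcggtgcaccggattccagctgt

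Signals are the deposited linear values. Differences are on the log2(signal + 32) scale, given ± SE from limma, and they understate the change of dim genes. The median signal of an array lay between 134 and 145, and precision is limited by how many arrays there were. Arrays with replicate numbers 1 and 2 of a group correlated at 0.990 to 0.998, as did numbers 3 and 4, while the 2 pairs of a group correlated at 0.970 to 0.994. Each pair was therefore averaged first, which left 18 values, and "passed" means an adjusted p under 0.05 in limma's moderated test of the pair averages over 7436 genes. The labels do not say that replicates were separate cultures, so these p-values measure the spread between pairs, which may be technical. Akt1 signal was 843 to 1395 on the 18 wild type arrays and 43.8 to 103 on the 18 PKBa-/- arrays (log2 difference -3.45 ± 0.10, adjusted p = 3.06e-11). The summed signal of 9 measured fibroblast markers was 43396 to 60722 in wild type and 59432 to 68697 in PKBa-/- cells. Single markers moved both ways. Thy1 (median 599 against 4646) and Pdgfrb (391 against 975) were higher in PKBa-/- cells, as were Col1a1, Col1a2, Col3a1 and Vim by smaller ratios. Lum (1141 against 324) was lower, as were Pdgfra and Fn1 by smaller ratios. The summed signal of 6 mesothelial markers was 4570 to 7509 in wild type and 299 to 409 in PKBa-/- cells. Upk3b carried most of it (median 4677 against 60.9), with Wt1 and Msln, while Krt8 (115 against 112), Krt18 and Krt19 were closer. The 5 endothelial markers summed to 541 to 594 at time 0 and 1275 to 1717 at time 48 in wild type, and to 312 to 529 over all PKBa-/- arrays. Kdr led that sum (median 890.2 against 229.7), and Pecam1 (49.1 against 48.8) and Cdh5 (52.2 against 59.7) stayed low in both. The 5 macrophage and leukocyte markers summed to 436 to 972 in wild type and 322 to 536 in PKBa-/- cells, with Ptprc at 16.9 and 17.0, Csf1r at 205 and 225 and Cd14 at 222 and 75.9. The 4 epithelial markers summed to 228 to 283 and 222 to 301, with Cdh1 at 14.1 and 14.3. The part of these marker differences in any genotype or time result below was not tested.

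The typical replication gene read lower in PKBa-/- than in wild type cells at time 0 and higher at time 48. The median of the 37 tested members, each taken relative to its own mean over the 36 arrays, was -0.04, -0.04, 0.28 and 0.25 on the wild type arrays of time 0 and -0.24, -0.26, -0.23 and -0.20 on the PKBa-/- arrays. At time 48 the order was turned, with -0.06, -0.12, 0.07 and -0.08 in wild type and 0.32, 0.33, 0.11 and 0.15 in PKBa-/- cells. The genotypes did not overlap at either time. At time 6 both genotypes were high, with 0.10, 0.07, 0.41 and 0.45 in wild type and 0.23, 0.22, 0.04 and 0.05 in PKBa-/- arrays, and these overlapped. At time 2 the 2 arrays of each genotype read -0.15 and -0.11 in wild type and -0.35 and -0.33 in PKBa-/- cells, without overlap.

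**Figure D1:**
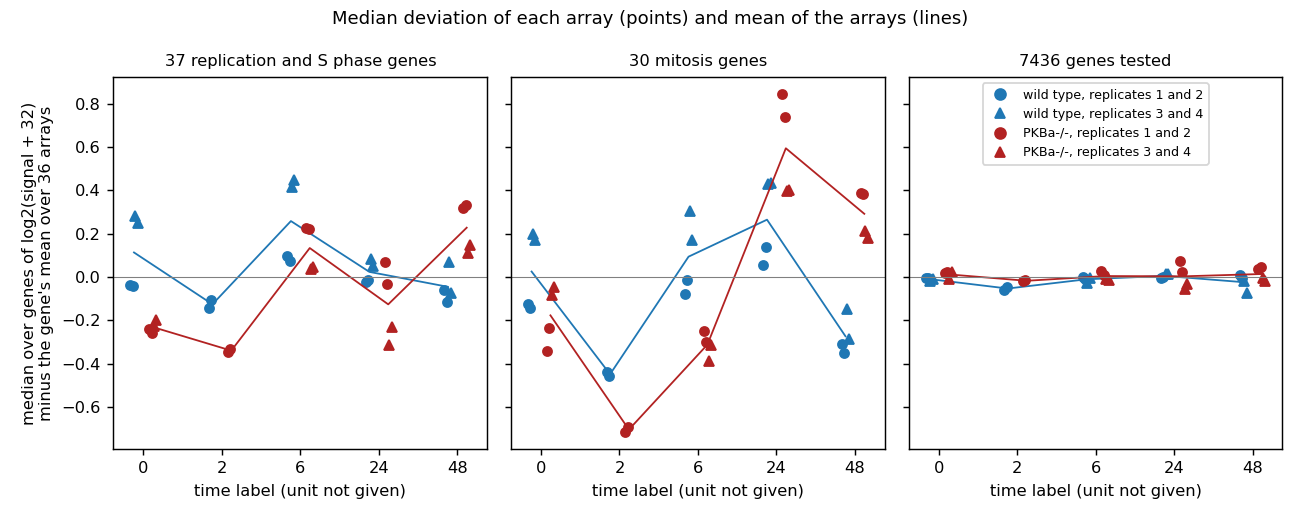
Each point is 1 array, placed by time label on the horizontal axis and by the median over genes of log2(signal + 32) minus the gene's mean over the 36 arrays on the vertical axis; lines join the means of the arrays of a group, circles are replicates 1 and 2 and triangles replicates 3 and 4. The left panel holds the 37 replication genes, with PKBa-/- arrays at -0.26 to -0.20 at time 0 and 0.11 to 0.33 at time 48; the middle panel holds 30 mitosis genes and the right panel all 7436 genes, which lie near 0 throughout.

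At time 0, 8 of 37 members were lower in PKBa-/- cells and 0 were higher, where 8.42% and 6.48% of all genes passed in those directions. The 8 were the licensing inhibitor Gmnn, the loader Cdt1, the helicase subunit Mcm7, the polymerase subunit Pola1, the clamp loader subunit Rfc5, the single-strand binding protein Rpa1, and Rrm2 and Dut of nucleotide supply. The median difference of the 37 was -0.39 against 0.03 for all genes tested, and 31 of the 37 differences were negative. By replicate set the median was -0.22 in replicates 1 and 2 and -0.55 in replicates 3 and 4. The 4 PKBa-/- arrays all lay below the 4 wild type arrays for 21 of 37 members, where 20.4% of all genes did so. The count rested on both pairs of a group: 1 member passed without PKBa-/- time 0 replicates 1 and 2, 2 without PKBa-/- replicates 3 and 4, and 1 without wild type time 0 replicates 3 and 4. Gmnn passed in each of these. Of the 8 calls, Rfc5 and Rrm2 were lost when 1 of several single arrays was left out. Here and below, counts with an array or pair left out have no share of all genes from the same fit. Such counts show how calls moved and are not results about the members.

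Fewer members passed at times 2, 6 and 24. At time 2, with 1 pair a group, none of the 37 members passed, where 5.82% of all genes did, and 3 had an unadjusted p under 0.05. The median difference there was -0.27, against 0.05 for all genes, and 27 of the 37 were negative. With 16 of the single arrays or pairs left out in turn, 1 member passed. At time 6, 1 member was higher in PKBa-/- cells (background 8.51%) and 2 were lower (background 8.07%). At time 24, 0 were higher (background 9.79%) and 3 were lower (background 10.7%). The replicate sets differed at both times, with a median of 0.09 in replicates 1 and 2 and -0.37 in replicates 3 and 4 at time 6, and 0.05 and -0.37 at time 24. Without PKBa-/- time 6 replicates 1 and 2 no member passed at time 6, and 1 passed without PKBa-/- replicates 3 and 4 or without wild type replicates 3 and 4. Without PKBa-/- time 24 replicates 1 and 2, 7 were lower at time 24, and the share of all genes is not given for that fit.

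At time 48, 9 of 37 members were higher in PKBa-/- cells, where 12.4% of all genes were, and 1 was lower, where 10.9% were. The 9 were the helicase genes Mcm5 and Cdc45, the polymerase genes Pola2, Pold1 and Pold2, the clamp Pcna, and Uhrf1, Slbp and Ccne1, and Gmnn was the lower one. The median difference was 0.24 against 0.04 for all genes, 32 of 37 were positive, and the median was 0.38 in replicates 1 and 2 and 0.15 in replicates 3 and 4. All 4 PKBa-/- arrays lay above the 4 wild type arrays for 14 of 37 members, where 22% of all genes did so. Without PKBa-/- time 48 replicates 1 and 2, 3 members passed, and without replicates 3 and 4, 6 passed. Pold1 and Ccne1 passed without each array and each of the 16 pairs left out in turn, which did not include those of time 2. Pold2, Pcna and Slbp did not pass without some single arrays.

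**Figure D2:**
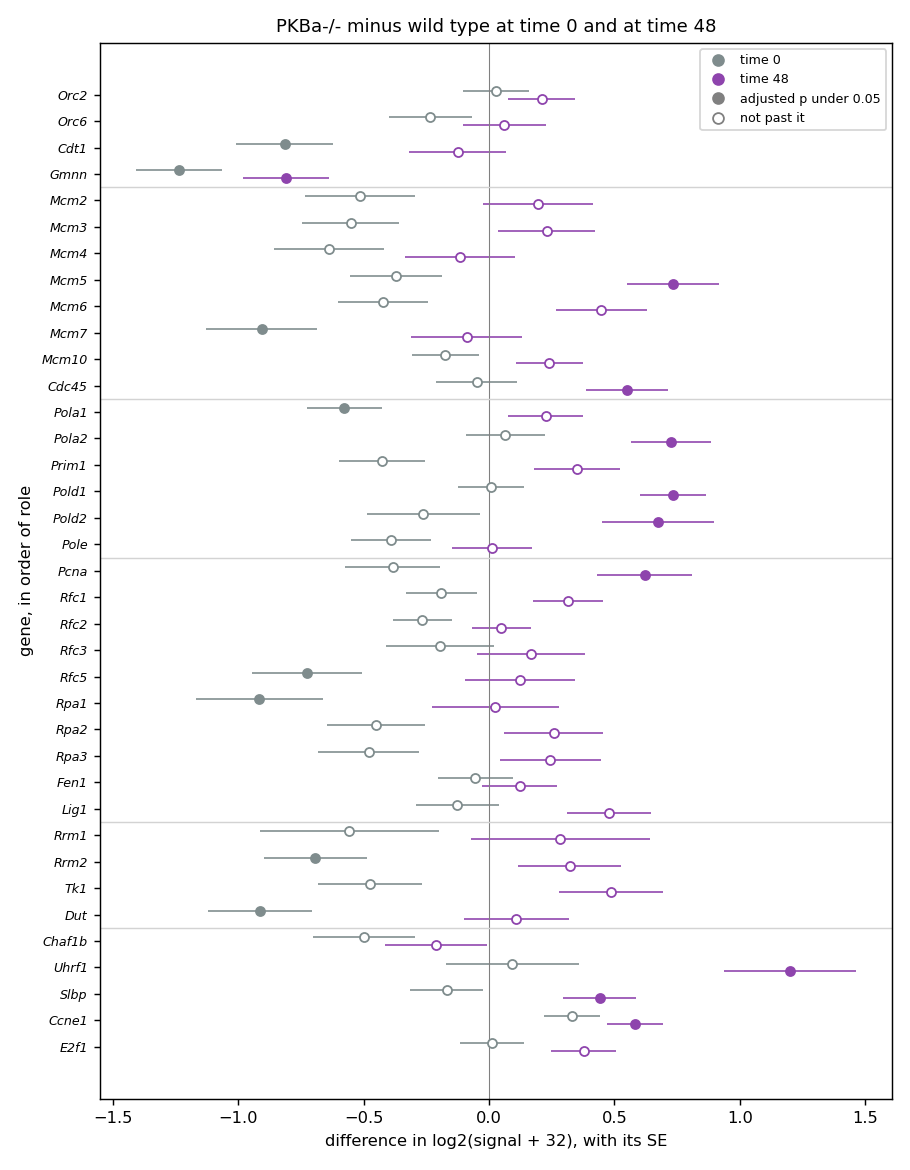
PKBa-/- minus wild type differences of the 37 tested members in log2(signal + 32), with SE bars, at time 0 (grey) and time 48 (purple); filled points passed. Most grey points lie left of 0, down to Gmnn at -1.24, and most purple points lie right of 0, up to Uhrf1 at 1.20.

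Averaged over the 5 times, 10 members were lower in PKBa-/- cells (background 20.9%) and 3 were higher (background 26.5%). The lower ones were Gmnn, Rpa1, Chaf1b, Mcm7, Mcm4, Cdt1, Pola1, Rfc5, Dut and Rfc2, and the higher ones were Uhrf1, Ccne1 and Pola2. The median of 37 was -0.16, with 0.03 in replicates 1 and 2 and -0.29 in replicates 3 and 4, against 0.03 for all genes. Replicates 3 and 4 have no time 2, so their value averages the other times alone. Rfc5 and Dut did not pass without some single arrays. The other 11 passed without each array and each of 16 pairs, where the pairs of time 2 were not left out. In the average without time 2, 11 calls were the same and 2 were weaker.

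Over time, some replication genes rose at time 6 in each genotype and some were above time 0 at time 48 in PKBa-/- cells. In wild type cells at time 6, Fen1, Rrm2, Rpa2, Cdc45, Slbp and Ccne1 rose (6 of 37, background 4.24%) and Pola1 fell (1 of 37, background 7.72%), and the median change of 37 was 0.08. Of all genes that passed in this comparison 35.4% were higher, and 47.5% after quantile normalization. In PKBa-/- cells at time 6, Rrm2, Rpa2, Cdt1, Mcm5, Orc2, Pcna, Fen1, Ccne1 and Slbp rose (9 of 37, background 8.62%), Pola1 fell (1 of 37, background 9.78%), and the median change was 0.35, against -0.01 for all genes in each genotype. In PKBa-/- cells the median was 0.45 in replicates 1 and 2 and 0.28 in replicates 3 and 4. It was 0.11 and 0.13 in wild type cells. Of the 7 calls in wild type cells, only that of Fen1 was kept without each single array. The wild type count was 0 without wild type time 0 replicates 1 and 2, 1 without wild type time 6 replicates 3 and 4, 3 without either other pair of those groups, 2 without any of the PKBa-/- pairs at times 0 and 6, and 4 without either PKBa-/- pair at time 48 or without PKBa-/- time 24 replicate 2 or 4. The PKBa-/- count was 4 without PKBa-/- time 0 replicates 1 and 2 and 3 without PKBa-/- time 0 replicates 3 and 4 or time 6 replicates 1 and 2, and Orc2 and Rrm2 passed in each.

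**Figure D3:**
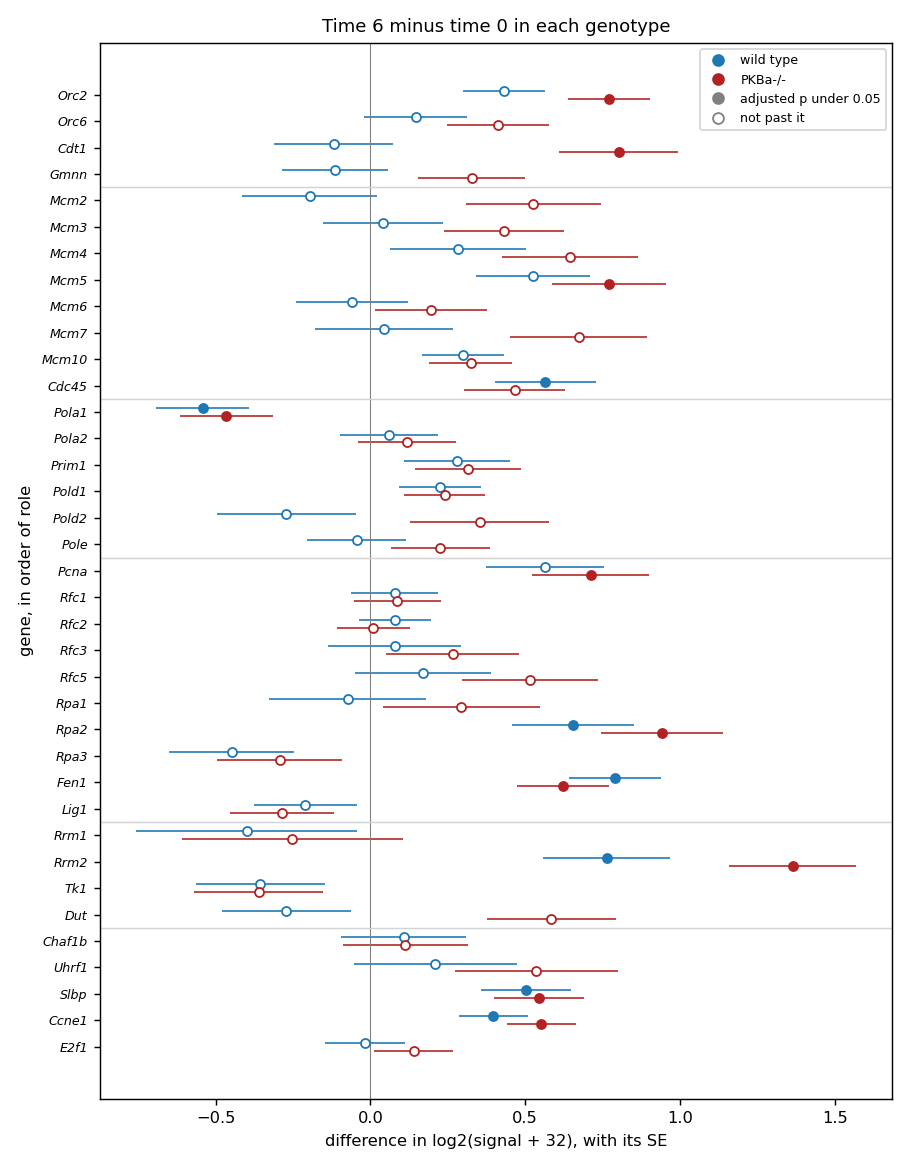
Change from time 0 to time 6 of the 37 tested members in log2(signal + 32), with SE bars, in wild type (blue) and PKBa-/- cells (red); filled points passed. Rrm2 lies farthest right in PKBa-/- cells at 1.36, and Pola1 lies left of 0 in both genotypes.

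At time 2, Cdt1 fell in wild type cells (-1.23 ± 0.24, adjusted p = 0.0139), the only 1 of 37 to pass (background 1.43% lower and 1.3% higher). Time 2 has 1 pair a group, so its tests assume that this pair varies like the pairs of the other groups. That count was 0 without wild type time 0 replicates 3 and 4 and 2 without wild type time 0 replicates 1 and 2. No member passed in PKBa-/- cells at time 2 (background 3.4%), and 0 had an unadjusted p under 0.05. Of all genes that passed there, 63.6% were higher, and 52.1% after quantile normalization. No member passed at time 24 in wild type (background 5.68%) or PKBa-/- cells (background 6.15%), with 0 and 7 members at an unadjusted p under 0.05. Without PKBa-/- time 24 replicates 3 and 4, 3 members were higher at time 24 in PKBa-/- cells, again with no share of all genes given for that fit.

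At time 48, 8 members were higher than at time 0 in PKBa-/- cells (background 3.07%) and 0 were lower (background 4.36%). They were Rrm2, Pcna, Rfc5, Mcm7, Mcm5, Pold1, Slbp and Ccne1. The median change was 0.44 against 0.00 for all genes, 36 of 37 changes were positive, and the median was 0.60 in replicates 1 and 2 and 0.37 in replicates 3 and 4. All 4 arrays of time 48 lay above the 4 of time 0 for 31 of 37 members in PKBa-/- cells, where 15.2% of all genes did so. In wild type cells no member passed at time 48 (background 6.05%), 2 had an unadjusted p under 0.05, the median change was -0.16, and all 4 arrays lay below those of time 0 for 10 of 37 members, where 15.2% of all genes did so. Of all genes that passed in wild type 35.6% were higher, and 46.8% after quantile normalization. The PKBa-/- count was 0 without PKBa-/- time 0 replicates 3 and 4, 2 without time 0 replicates 1 and 2, 1 without time 48 replicates 1 and 2, 3 without time 48 replicates 3 and 4, and 5 without either PKBa-/- pair of time 6, either wild type pair of time 48, or PKBa-/- time 24 replicate 2 or 4.

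The change from time 0 to time 48 was then compared between the genotypes. The signed change in PKBa-/- cells minus that in wild type cells was positive for 37 of 37 members, some of which moved farther, downward, in wild type cells (Rrm1 by -0.73 there and by 0.11 in PKBa-/- cells). The median difference was 0.71 against 0.02 for all genes, and it was 0.67 in each replicate set. No single member passed (background 1.14%), 25 had an unadjusted p under 0.05, and the lowest adjusted p was 0.0729. 1 member passed without either PKBa-/- pair of time 24. With the 36 arrays and a random effect of the pair, 15 members passed, and 7 passed with the replicate set as a covariate. The share of all genes is not given for these fits or for the unadjusted p, so those counts have no background to be read against. The difference between the genotypes in the change to time 6 passed for no member (background 0.551%), with 3 at an unadjusted p under 0.05, and neither did that to time 24 (background 0.726%), with 1.

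Among the licensing genes, Gmnn was lower in PKBa-/- cells at 4 of the 5 times and had the largest genotype difference of the 37 tested members. Gmnn encodes geminin, which binds CDT1 and blocks a further round of licensing. Gmnn signal at time 0 was 251, 286, 390.0 and 369 on the wild type arrays and 109, 111, 116 and 134 on the PKBa-/- arrays. All PKBa-/- arrays lay below all wild type arrays (-1.24 ± 0.17, adjusted p = 0.000356). The gap stayed at time 6 (-0.79 ± 0.17, adjusted p = 0.00722), with 238, 296, 353 and 294 against 142, 169.7, 147 and 164. It was as wide at time 24, with 315, 420.1, 333 and 331 against 179.6, 141, 103 and 125 (-1.19 ± 0.17, adjusted p = 0.000392). At time 48 the wild type arrays read 334, 264, 398 and 281 and the PKBa-/- arrays 183, 183, 134 and 168 (-0.81 ± 0.17, adjusted p = 0.00475), again with no overlap, although the call was lost without PKBa-/- time 48 replicates 3 and 4. Only at time 2, with 1 pair a group, did the difference of -0.89 ± 0.24 not pass (adjusted p = 0.0516).

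Cdt1 encodes the loader that geminin inhibits. Its signal at time 0 was 925, 901, 1104 and 1169 in wild type and 546, 589.8, 548 and 576 in PKBa-/- cells, with no overlap (-0.82 ± 0.19, adjusted p = 0.0128). By time 2 the wild type arrays had fallen to 409 and 422, level with PKBa-/- arrays at 418 and 457. At time 6 PKBa-/- arrays read 1075, 1121, 881 and 973, all above their time 0 level (0.80 ± 0.19, adjusted p = 0.0129), and overlapped the wild type arrays at 873, 840.1, 1016 and 1025. They were lower than wild type again at time 24, at 558, 522, 353 and 358 against 892, 828, 847 and 834 in wild type (-0.91 ± 0.19, adjusted p = 0.00534). The pairs of PKBa-/- arrays stood apart at time 24 and again at time 48, where the values were 893, 927, 696 and 626.

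Orc2, a subunit of the origin recognition complex, rose at time 6 in PKBa-/- cells from 289, 269, 259 and 225 to 482, 485, 443 and 453, with no overlap (0.77 ± 0.13, adjusted p = 0.00231). In wild type it read 253, 265, 238 and 262 at time 0 and 350.2, 373, 368 and 327 at time 6, also without overlap, but did not pass (0.43 ± 0.13, adjusted p = 0.0534). The genotypes did not differ past the threshold in Orc2 at any time, although all PKBa-/- arrays of time 6 lay above the wild type arrays. Orc6, another subunit of the complex, did not pass in any comparison, and its change at time 6 was 0.15 ± 0.17 in wild type and 0.41 ± 0.17 in PKBa-/- cells. Cdc6, the ATPase that works with CDT1, and Orc1 were below the filter. In a fit of all genes without the filter both were higher at time 6 in PKBa-/- cells, by 1.39 ± 0.19, adjusted p = 0.00124 and 0.48 ± 0.10, adjusted p = 0.013. Cdc6 read 55, 65.7, 56 and 51.5 at time 0 and 196, 277, 160.3 and 185 at time 6 in those cells.

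**Figure D4:**
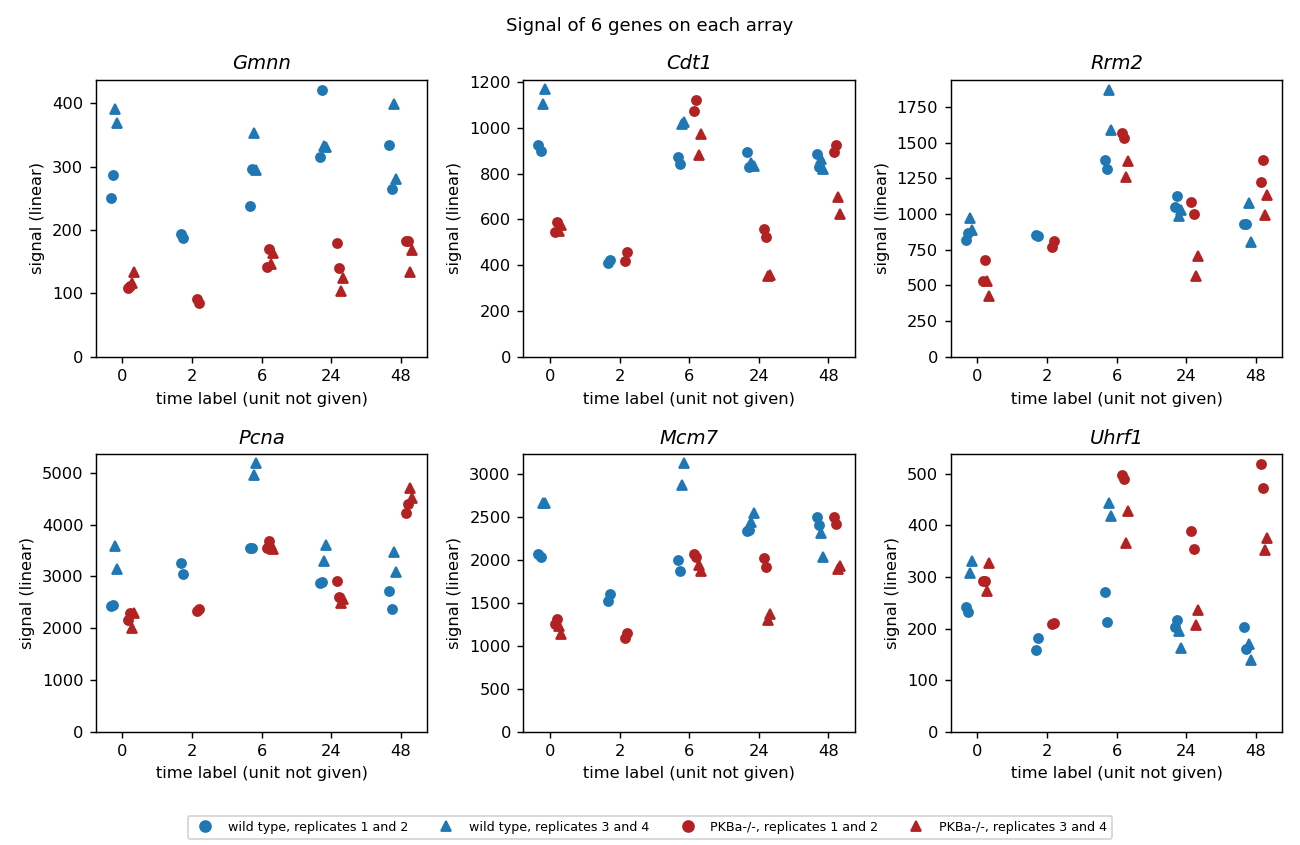
Signal of Gmnn, Cdt1, Rrm2, Pcna, Mcm7 and Uhrf1 on each array (vertical axis, linear, from 0) by time label; circles are replicates 1 and 2, triangles replicates 3 and 4, blue wild type and red PKBa-/- cells. Gmnn is lower in PKBa-/- cells at every time, while Pcna and Uhrf1 of PKBa-/- cells lie above all wild type arrays at time 48.

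The 8 helicase genes all had a negative genotype difference at time 0, with a median of -0.47, and only Mcm7 passed. Mcm7, a subunit of the MCM ring, read 2065, 2035, 2658 and 2668 in wild type and 1249, 1307, 1234 and 1139.9 in PKBa-/- cells at time 0 (-0.91 ± 0.22, adjusted p = 0.0157). The genotypes did not overlap, and 3 of its 4 probe sets passed, with differences from -0.59 to -0.91. By time 48 the PKBa-/- arrays read 2496, 2421, 1892 and 1927, above all their arrays of time 0 (0.80 ± 0.22, adjusted p = 0.0481), and overlapped the wild type arrays at 2497, 2405, 2316 and 2039 (-0.09 ± 0.22, not passed). That rise did not pass without several single arrays.

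Mcm5, the subunit next to MCM2 in the ring, went from 363, 308, 315 and 334 at time 0 to 632, 631, 534 and 545 at time 6 and 687, 669.7, 488 and 506 at time 48 in PKBa-/- cells. Both rises passed (0.77 ± 0.18, adjusted p = 0.0126 at time 6, 0.76 ± 0.18, adjusted p = 0.0249 at time 48), and no later array overlapped time 0. The wild type arrays read 391, 380.4, 463 and 517 at time 0, 600.4, 531, 718 and 730.4 at time 6 and 363, 315, 328 and 344 at time 48. All PKBa-/- arrays of time 48 lay above these last (0.73 ± 0.18, adjusted p = 0.0127). Mcm4 read 764, 819, 1054 and 1121 in wild type and 614, 571, 564 and 590.5 in PKBa-/- cells at time 0, without overlap, but passed only in the average over times (-0.38 ± 0.11, adjusted p = 0.0116), and at time 48 its difference was -0.12 ± 0.22. Cdc45, which joins the ring to the active helicase, rose at time 6 in wild type (0.56 ± 0.16, adjusted p = 0.0426). It went from 137, 152, 207 and 196 to 256, 249.8, 274 and 295, and this call was lost without 1 of some single arrays. At time 48 Cdc45 was higher in PKBa-/- cells (0.55 ± 0.16, adjusted p = 0.0287). Mcm2, Mcm3, Mcm6 and Mcm10 did not pass in any comparison. Their genotype differences were -0.51, -0.55, -0.42 and -0.17 at time 0, and 0.20, 0.23, 0.45 and 0.24 at time 48.

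Pola2 and Pola1 are subunits of polymerase alpha, which starts each new strand with primase. Pola2 read 362, 322, 340.1 and 359 in wild type and 358, 346, 365 and 383 in PKBa-/- cells at time 0, where the genotypes overlapped (0.07 ± 0.16). At time 48 it read 315, 319.6, 258 and 306 and 562, 605, 484 and 428, with all PKBa-/- arrays above (0.73 ± 0.16, adjusted p = 0.00571). Pola1, the catalytic subunit, read 244, 224, 271 and 264 and 142, 155, 155 and 179 at time 0, with PKBa-/- arrays all below (-0.58 ± 0.15, adjusted p = 0.0215). It was the 1 member to fall at time 6 in both genotypes, to 139, 155, 174 and 183 in wild type (-0.54 ± 0.15, adjusted p = 0.0372) and 111, 113, 91.9 and 105 in PKBa-/- cells (-0.47 ± 0.15, adjusted p = 0.0494). Each of these falls was lost when 1 of some single arrays was left out, and the time 0 call was lost when a pair was.

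Pold1 and Pold2 encode the catalytic and a small subunit of polymerase delta, which copies the lagging strand. Pold1 read 184, 188, 173 and 178 in wild type and 336, 372, 295 and 288 in PKBa-/- cells at time 48, without overlap (0.73 ± 0.13, adjusted p = 0.00166). At time 0 the genotypes had been level, at 214, 195, 183 and 231 and 212, 180.3, 213 and 221 (0.01 ± 0.13). The rise to time 48 in PKBa-/- cells passed (0.57 ± 0.13, adjusted p = 0.0198), and the second Pold1 probe set gave 0.53 for the genotype difference at time 48. Pold2 read 485, 572, 586 and 439.7 and 949.6, 982, 673 and 806 at time 48 (0.67 ± 0.22, adjusted p = 0.0479), with PKBa-/- arrays all above wild type arrays. Prim1, the small primase subunit, and Pole, the catalytic subunit of the leading strand polymerase epsilon, did not pass in any comparison, with genotype differences of -0.43 ± 0.17 and -0.39 ± 0.16 at time 0. Pole2, below the filter, was lower at time 0 in PKBa-/- cells without the filter (-0.83 ± 0.11, adjusted p = 0.000736), at 78.4, 94.7, 74 and 95.5 against 185, 177, 187 and 158.

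Pcna is the sliding clamp that holds polymerases on DNA, and it rose at times 6 and 48 in PKBa-/- cells. It read 2164, 2285, 2001 and 2295 at time 0, 3558, 3680.2, 3609 and 3534 at time 6 and 4219.6, 4404, 4709 and 4518 at time 48 there. Both rises passed (0.71 ± 0.19, adjusted p = 0.0218 and 1.02 ± 0.19, adjusted p = 0.0064), and time 48 lay above every other PKBa-/- array. In wild type Pcna read 2429, 2440.1, 3586 and 3140.1, 3543, 3540.2, 4964 and 5199 and 2722, 2379, 3471 and 3094 at these times, and its change at time 6 did not pass (0.56 ± 0.19, adjusted p = 0.0758). The genotype difference at time 48 was 0.62 ± 0.19, adjusted p = 0.0329, and the call was lost without wild type time 48 replicate 4.

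The RPA trimer coats single-stranded DNA, and its 3 genes did not pass in the same comparisons. Rpa1, the large subunit, read 1848, 1756, 2562 and 2559 in wild type and 1108, 1169.6, 1161 and 1057 in PKBa-/- cells at time 0, without overlap (-0.92 ± 0.25, adjusted p = 0.0289). Rpa2 rose at time 6 in wild type from 206, 226, 302 and 269 to 318, 367, 485 and 490.3 (0.65 ± 0.20, adjusted p = 0.0491). In PKBa-/- cells it rose from 186, 176, 159 and 172 to 348, 394, 353 and 355 (0.94 ± 0.20, adjusted p = 0.00625), with no overlap in either genotype, and the wild type call was lost without 1 of many single arrays. Rpa3, the small subunit, did not pass in any comparison, and its changes at time 6 were -0.45 ± 0.20 in wild type and -0.29 ± 0.20 in PKBa-/- cells, opposite in sign to those of Rpa2.

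Fen1, the nuclease that trims the flaps between Okazaki fragments, rose at time 6 in both genotypes. It went from 1029.8, 1013, 1181 and 1231 to 1986, 2029, 1819 and 1939 in wild type (0.79 ± 0.15, adjusted p = 0.00613) and from 1029, 973, 1101 and 1179 to 1613, 1814, 1679 and 1544 in PKBa-/- cells (0.62 ± 0.15, adjusted p = 0.0129). The 2 Fen1 probe sets gave different sizes: the dimmer one rose by 1.15 in PKBa-/- cells and was higher in PKBa-/- cells at time 48 by 0.61, where the brighter one gave 0.12. Rfc5, a subunit of the clamp loader, was lower in PKBa-/- cells at time 0 (-0.73 ± 0.22, adjusted p = 0.0435), at 228, 255, 233 and 255 against 383, 346, 524 and 459, and rose there by time 48 (0.89 ± 0.22, adjusted p = 0.0276). Rfc2 passed only in the average over times (-0.19 ± 0.06, adjusted p = 0.0158), and Rfc1, Rfc3 and Lig1, the ligase that seals the fragments, did not pass in any comparison. Rfc4, below the filter, had a genotype difference of -0.60 ± 0.22, adjusted p = 0.114 at time 0 without the filter.

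Rrm2 had the largest change over time of the tested members. It encodes the regulated subunit of ribonucleotide reductase, which makes deoxynucleotides. In PKBa-/- cells Rrm2 read 530.0, 675, 533 and 427 at time 0 and 1567, 1531, 1259 and 1370.3 at time 6 (1.36 ± 0.21, adjusted p = 0.00113). It read 1083, 1003, 566 and 709 at time 24 and 1224, 1377, 991 and 1132 at time 48 (1.09 ± 0.21, adjusted p = 0.00686 against time 0). Wild type arrays went from 817, 866, 973 and 887 to 1377, 1313, 1869 and 1588 (0.76 ± 0.21, adjusted p = 0.0338) and read 934, 933, 1077 and 805 at time 48. No array of time 6 overlapped time 0 in either genotype. The genotype difference at time 0 (-0.69 ± 0.21, adjusted p = 0.041) was lost without 1 of some single arrays, and of its 3 probe sets only the brightest passed there.

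Dut, which removes dUTP from the nucleotide pool, read 423, 379, 446 and 401 in wild type and 185, 198, 191 and 244 in PKBa-/- cells at time 0, without overlap (-0.91 ± 0.21, adjusted p = 0.0107). At time 48 the genotypes overlapped, at 369, 312, 318 and 208 and 355, 361, 273 and 305 (0.11 ± 0.21). The second Dut probe set, with a mean signal of 105, gave a smaller difference at time 0 (-0.34 ± 0.16) and was not tested. Rrm1, the large subunit of the reductase, did not pass on its brightest probe set at time 0 (-0.56 ± 0.36, adjusted p = 0.322). Its arrays were spread between the pairs, at 1044, 1039, 1637 and 1671 in wild type and 789, 705, 961 and 1132 in PKBa-/- cells, while its other probe set gave -0.59 with an adjusted p of 0.0183. Tk1, the thymidine salvage kinase, did not pass in any comparison, with differences of -0.48 ± 0.21 at time 0 and 0.49 ± 0.21 at time 48. All 3 probe sets of Tyms, thymidylate synthase, were dim, with mean signals from 20.04 to 34.4, and gave no test.

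Of the genes of chromatin assembly and S phase entry, Uhrf1 differed most at time 48. Uhrf1 encodes a protein that brings the maintenance DNA methyltransferase to newly copied DNA. It read 202, 161, 169 and 139 in wild type and 519, 473, 353 and 376 in PKBa-/- cells at time 48, without overlap (1.20 ± 0.26, adjusted p = 0.00598). At time 0 it read 242, 231, 308 and 331 and 291, 292, 273 and 328, where the genotypes overlapped (0.09 ± 0.26). The change within either genotype did not pass (-0.63 ± 0.26, adjusted p = 0.204 in wild type, 0.48 ± 0.26, adjusted p = 0.33 in PKBa-/- cells). The second probe set gave 0.99 for the difference at time 48.

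Ccne1, cyclin E1, which activates CDK2 at the start of S phase, was higher in PKBa-/- cells at times 6 and 48. At time 6 it read 216, 233, 229 and 239 in wild type and 343, 324, 350.3 and 318 in PKBa-/- cells (0.49 ± 0.11, adjusted p = 0.0104). At time 48 it read 177, 187, 193 and 197 and 344, 312, 264 and 277 (0.58 ± 0.11, adjusted p = 0.00256). The genotypes did not overlap at either time, nor at time 0, where the difference did not pass (0.33 ± 0.11, adjusted p = 0.0672). Ccne1 was also higher in the average over times (0.42 ± 0.05, adjusted p = 5.15e-05). It rose from time 0 to time 6 in wild type (0.40, adjusted p = 0.039) and in PKBa-/- cells (0.55, adjusted p = 0.00516). In PKBa-/- cells it was also above time 0 at time 48 (0.40, adjusted p = 0.0471). The wild type call and the call at time 48 were each lost without 1 of some single arrays. Ccne2, cyclin E2, was below the filter and read 24.7, 26.1, 23.5 and 26.7 at time 0 and 87.3, 102, 68.2 and 79.2 at time 6 in PKBa-/- cells (1.01 ± 0.12, adjusted p = 0.000731 without the filter).

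Chaf1b, a subunit of the chromatin assembly factor that places histones behind the fork, was lower in PKBa-/- cells at time 24 (-0.62 ± 0.20, adjusted p = 0.0492). It read 215, 231, 256 and 248 in wild type and 147, 136, 156 and 136 in PKBa-/- cells at that time, without overlap. The call at time 24 was lost without 1 of many single arrays, whereas the average over times was -0.49 ± 0.10, adjusted p = 0.00147. Slbp, which binds histone mRNA, rose at time 6 in wild type (0.50 ± 0.15, adjusted p = 0.044) and in PKBa-/- cells (0.55 ± 0.15, adjusted p = 0.0222). It read 644, 638, 839 and 768 and 946, 963, 1135 and 1085 at times 0 and 6 in wild type, without overlap, and 602, 631, 583 and 730.5 and 1006, 1033, 819 and 918 in PKBa-/- cells. The time 6 call was lost without 1 of some single arrays in wild type and without 1 array in PKBa-/- cells. At time 48 Slbp was higher in PKBa-/- than in wild type cells (0.44 ± 0.15, adjusted p = 0.0465). It was also above time 0 in PKBa-/- cells (0.53 ± 0.15, adjusted p = 0.0458), and both calls at time 48 were lost without some single arrays. E2f1, the transcription factor itself, did not pass in any comparison and had the smallest range among the 37 tested members, with its highest group mean 1.32 times its lowest.

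**Figure D5:**
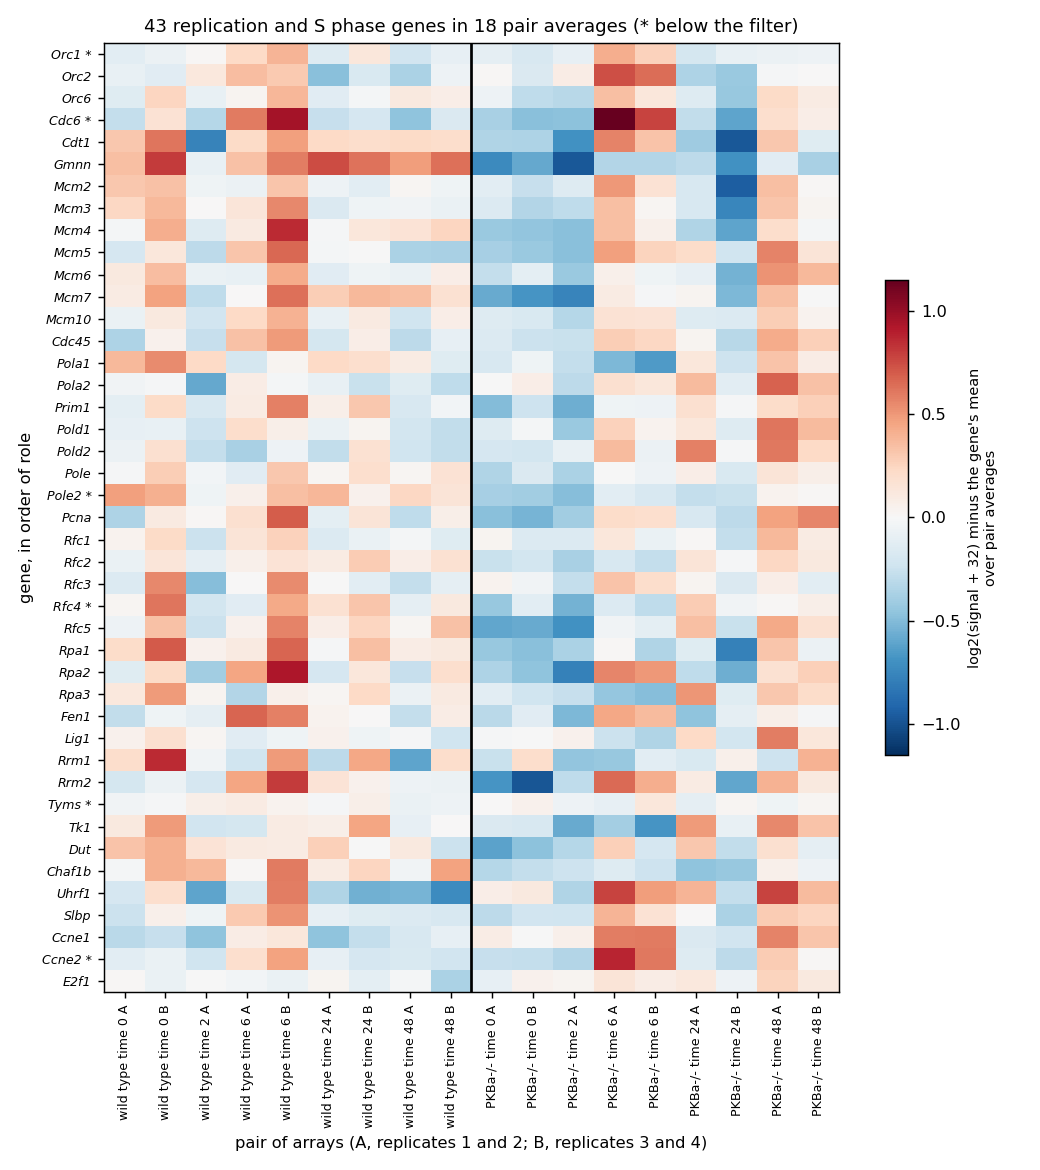
Each row is 1 of 43 measured members in order of role and each column 1 of 18 pair averages; colour is log2(signal + 32) minus the gene's mean over the pairs, red above and blue below. The wild type columns stand left of the black line and the PKBa-/- columns right of it. Most rows are red at time 6 in both genotypes and, in PKBa-/- cells, blue at time 0 and red at time 48, with Gmnn blue in every PKBa-/- column.

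The members were highest at different times. Of the 37 tested members, 13 had their highest group mean in wild type cells at time 6, 9 in PKBa-/- cells at time 48, 7 in wild type cells at time 0 and 5 in PKBa-/- cells at time 6. The lowest group mean lay at time 2 for 16 members in PKBa-/- cells and for 7 in wild type cells. It lay in PKBa-/- cells at time 0 for 5. Group means of time 2 rest on replicates 1 and 2 alone, while the others average both replicate sets. The sets could differ, with member medians of -0.04 and -0.04 against 0.28 and 0.25 in wild type at time 0. The part of the missing set in these rankings and ranges was not tested. Gmnn had the widest range among the tested members, with its highest group mean 3.97 times its lowest, ahead of Rpa2 at 3.28.

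Genes around this machinery were read from 3 further lists. Of 26 tested other replication factors, 0 were higher (background 6.48%) and 3 lower (background 8.42%) in PKBa-/- cells at time 0, a share near the background for the lower ones, namely the histone chaperone Asf1a (-0.64), the small polymerase delta subunit Pold4 (-0.53) and the MCM-binding protein gene Mcmbp (-0.43). At time 48, 4 were higher (background 12.4%) and 2 lower (background 10.9%), both near the background, including the chaperone Asf1b (0.69), the kinase Cdc7 that fires origins (0.64) and Chtf18 of an alternative clamp loader (0.62), with Pold4 (-0.61) and Asf1a (-0.37), named after their values were seen, lower. At time 6, 11 of the 26 rose in PKBa-/- cells (background 8.62%) and 2 in wild type (background 4.24%). Of 18 tested regulators of S phase entry, 1 was higher and 1 lower at time 0, near the same background shares (Ccnd3, a D-type cyclin, 0.64, and the repressor E2f6, -0.56), and 4 were higher and 1 lower at time 48, where 12.4% and 10.9% of all genes were (Myc 1.00 and Skp2, a subunit of a ubiquitin ligase, 0.65 among the higher, E2f6 -0.57).

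Mitosis genes were counted in the same comparisons. Of 30 tested, 2 were lower in PKBa-/- cells at time 0, near the background of 8.42% (Anln, of the contractile ring, -0.78, and Cdk1, the mitotic kinase, -0.74) and 15 were higher at time 48, where 12.4% of all genes were (Mki67, the proliferation antigen Ki-67, 0.98, the cyclin gene Ccnf 0.96 and Ube2c, of the anaphase-promoting machinery, 0.90). In PKBa-/- cells 17 of 30 mitosis genes rose at time 24 (background 2.8%), where none of the 37 replication genes passed. At time 6, where 9 replication genes rose in those cells, 0 mitosis genes rose (background 8.62%) and 4 fell (background 9.78%). The median change of mitosis genes at time 24 was 0.76 in PKBa-/- cells, with 1.10 in replicates 1 and 2 and 0.42 in replicates 3 and 4, and 0.24 in wild type cells, where 0 of 30 passed.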

How the data were processed

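The authors' deposited table gave linear intensities for each probe set. Their summarisation and normalization are not given in the sources used here. Per the labels, total RNA was made into biotinylated cRNA targets. All 36 value columns were mapped to samples by their labels. Probe sets were named through GEO's platform annotation; those with 1 gene (20380 of 22690, no control probe sets among them) were used. Intensities were taken as log2(signal + 32), each gene on its brightest probe set. The lowest 40% of genes were not tested, a limit near a signal of 123.

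R 4.3.3 with limma 3.58.1 fitted 10 group means to 18 pair averages (8 residual and 4.23 prior degrees of freedom), two-sided, with Benjamini-Hochberg adjustment within each comparison. On simulated data for the time 48 genotype comparison (7436 genes), the test on pair averages found 62.7% of genes changed 1.5-fold, 95.4% of those changed 2-fold and 98.4% of those changed 4-fold. It made 4 false calls, where single arrays as replicates made 351. The simulated arrays of a pair were given a shared effect, with a correlation of 0.66. The many false calls of single arrays follow from that setting and do not show which replicate is right for the data. Same-numbered arrays deviated together at 0.0359 to 0.720 within a genotype and at -0.215 to 0.439 between genotypes. The numbers were not taken as pairs, although all values within a genotype were positive. A deviation shared by a replicate set therefore stays in the SE.

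The members, roles and lists were chosen with earlier results of these data known. All members could be named; those given on every array are up to 3 per role with the largest differences, and Cdc45, Cdc6, Ccne2, Fen1, Pola1, Pole2, Rfc5 and Slbp were added after their values were seen. Other lists name up to 3 passed genes in each of the genotype comparisons at times 0 and 48. The alternatives tried were other offsets, filters and probe set rules, quantile normalization, an intensity trend, other treatments of replicates, and leaving out arrays or pairs.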

Additional observations from a re-analysis of the deposited data

Results flagged for a closer look

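In 12 of 344 groups of 4 arrays checked (43 genes in 8 groups), 1 array stood apart from the other 3 by most of the group's range. Chance alone sets 1 apart in about 1 in 20 groups of independent values. The arrays of a group came in correlated pairs, so 12 of 344 cannot be read against that rate.

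Above the other arrays of their group were Mcm2 in wild type time 48 replicate 1 (signal 702.56 against 634 to 639), Rfc1 in wild type time 6 replicate 3 (611.465 against 521 to 534), E2f1 in PKBa-/- time 6 replicate 1 (452.829 against 403 to 407), and Rfc3 and Rpa2 in PKBa-/- time 6 replicate 2 (282.479 against 238 to 244, and 393.881 against 348 to 355). Pole2 in PKBa-/- time 48 replicate 2 (129.512 against 122 to 124), Tyms in PKBa-/- time 48 replicate 3 (38.828 against 31.8 to 32.6) and Slbp in PKBa-/- time 48 replicate 1 (981.206 against 915 to 916) stood above as well. Below the others were Fen1 and E2f1 in wild type time 24 replicate 4 (1221.95 against 1278 to 1286, and 320.6 against 382 to 392), Lig1 in wild type time 24 replicate 3 (281.492 against 323 to 325) and Chaf1b in PKBa-/- time 48 replicate 4 (177.297 against 216 to 220.1).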

How the results depend on the processing

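No called member difference turned its direction in 4146 recomputations, but many of these could not have turned it. Leaving out an array or pair outside the groups compared does not change the difference between their means. Fits to single arrays, with or without a random effect of the pair, use the same group means. The number 4146 therefore does not measure how firm the directions are. Of 63 calls, 43 were kept without each single array and 18 without each array and each of 16 pairs. The pairs of time 2 were not left out. With 1 array or pair left out, the members called ranged from 11 to 18 (13 in the fit reported) for the genotype average, and between genotypes from 1 to 10 (8), 0 to 1 (0), 0 to 4 (3), 2 to 7 (3) and 3 to 12 (10) at times 0, 2, 6, 24 and 48. Against time 0 they ranged from 0 to 2 (1) and 0 to 8 (7) in wild type at times 2 and 6, and 3 to 13 (10), 0 to 3 (0) and 0 to 12 (8) in PKBa-/- cells at times 6, 24 and 48. For the difference of changes to time 48 they ranged from 0 to 1, and they stayed at 0 in the remaining comparisons.

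Counts moved most with what was taken as a replicate. The share of all genes that passed under each alternative is not given. The counts in this section therefore show how calls moved and are not results about the members. With 36 arrays as replicates the count was 27 for the genotype average, 23, 6, 10, 14 and 18 between genotypes at times 0, 2, 6, 24 and 48, 8, 14, 5 and 7 in wild type against time 0 at times 2, 6, 24 and 48, 2, 25, 13 and 32 in PKBa-/- cells, and 4, 1 and 27 for the difference of changes at times 6, 24 and 48. In the same order, replicates 1 and 2 alone gave 24, then 21, 23, 15, 18 and 30, then 14, 18, 14 and 9, then 11, 31, 23 and 34, then 15, 19 and 34. Replicates 3 and 4 alone, which have no time 2, gave 33, then 29, 26, 24 and 17, then 17, 11 and 19, then 22, 8 and 22, then 3, 1 and 28. A random effect of the pair gave 14, 8 and 7 between genotypes at times 0, 6 and 24, 2 and 1 in wild type at times 2 and 48, 17, 1 and 18 in PKBa-/- cells at times 6, 24 and 48, and 1 and 15 for the difference of changes at times 6 and 48.

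The replicate numbers were not taken to pair the samples in the reported fit, and the labels do not say whether they do. With the replicate set as a replicate block on pair averages the count was 20 for the genotype average, 14, 2 and 6 between genotypes at times 0, 2 and 6, 2, 1 and 2 in wild type at times 2, 24 and 48, 2 and 15 in PKBa-/- cells at times 24 and 48, and 7 for the difference of changes at time 48. With the replicate number as a block on 36 arrays the counts, in the order above, were 29, then 23, 9, 13, 15 and 20, then 9, 16, 7 and 10, then 2, 26, 14 and 34, then 6, 2 and 29.

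With an offset of 16, the mean of all probe sets or an intensity trend, 1 member passed between genotypes at time 2. With the lowest 60% of genes left out, which tests fewer members, 0, 1 and 6 passed at times 6, 24 and 48 and 3 in wild type at time 6. With every probe set tested 1 passed in wild type at time 48. With quantile normalization 1 and 14 passed in PKBa-/- cells at times 24 and 48 and 1 in the difference of changes at time 48. Except where the construction shows it, the cause was not tested. An offset of 64, no filter, and the average without time 2 moved no count by more than 1.5 times. A steady count can hide calls lost and gained. Without the filter, 51 of the 63 calls stayed the same and 12 were weaker. In wild type at time 6, Cdc45, Rrm2, Rpa2 and Slbp did not pass without it (adjusted p = 0.0563, 0.0512, 0.0726 and 0.0522). Fen1, Ccne1 and Pola1 still passed there.

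There were 2 pairs a group and 1 at time 2. The 6 dim members below the filter gave no test in the reported fit.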
